A study of Mus musculus with 12 samples.

Results

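The genes described here are 9 well-known transcriptional targets of the tumour suppressor p53: Cdkn1a, Pmaip1, Bbc3, Sesn2, Aen, Mdm2, Trp53inp1, Ccng1 and Phlda3. They were chosen by name, and every probe set that the platform table assigns to a single one of these symbols was taken, which gave 19 probe sets of the 45099 on the array and 9 genes of the 18194 with a symbol of their own. RNA was measured on 12 arrays of thymocytes sorted from mice of 2 genotypes, WT and IkL/L, at 3 stages of T cell development, DN3, DN4 and DP, with 2 arrays in each of the 6 groups. The series title calls the IkL/L cells Ikaros-deficient. IkL/L mice carry a hypomorphic allele of Ikzf1, the gene of the zinc-finger transcription factor Ikaros, in all their cells and not in thymocytes alone. WT mice served as controls, and no treatment is named in the labels. Cells of 3 mice were pooled for a sort. Neither the age of the mice nor whether the arrays of a group came from separate pools is given in the sources used here. Sex-linked signal, given below, differed between the replicates of both genotypes. For the WT arrays the spread within a group may be partly technical.

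p53 is a transcription factor that is stabilised by DNA damage and other stresses, and it induces genes that stop the cell cycle, trigger apoptosis or repair damage. Developing thymocytes cut and rejoin their T cell receptor genes, pass a checkpoint between DN3 and DN4 that requires a working pre-T cell receptor, and divide rapidly before they become resting DP cells. DP cells are well known for their readiness to die by apoptosis. Cdkn1a encodes the cyclin-dependent kinase inhibitor p21, and Ccng1 encodes cyclin G1. Pmaip1 (Noxa) and Bbc3 (Puma) encode pro-apoptotic BH3-only proteins, Aen an apoptosis-enhancing nuclease, Phlda3 an inhibitor of the kinase Akt, and Trp53inp1 a nuclear protein that promotes p53-dependent cell death. Mdm2 encodes the ubiquitin ligase that degrades p53, and Sesn2 encodes sestrin 2, a stress-responsive inhibitor of the growth kinase complex mTORC1.

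The sorted populations matched their labels in the main. Il2ra, which encodes CD25 and defines DN3 cells, lay between 10.30 and 10.72 on the DN3 arrays and between 4.56 and 6.25 on the others, in log2 units of the deposited signal. Cd4 and Cd8a lay between 10.57 and 13.01 on the DP arrays and between 5.71 and 7.88 on the others. The probe set of Ikzf1 read 11.78 to 12.40 on the WT arrays and 11.18 to 11.75 on the IkL/L arrays, with no overlap within a stage. Whether it reads the altered part of the gene is not given in the sources used here. Array medians lay between 5.14 and 5.22, and arrays of a group correlated at 0.986 to 0.995 over the 11649 tested genes. The Y-linked gene Eif2s3y read 2.82 to 3.12 on replicate 2 of the IkL/L group at each stage. It read 7.78 to 9.58 on the other 9 arrays. Signal of male cells was thus present on all WT arrays and IkL/L replicate 1, and missing on IkL/L replicate 2. Xist, an RNA of female cells, read 10.33 to 12.41 on the WT arrays. It read 10.73 to 12.19 on IkL/L replicate 1 and 12.56 to 12.70 on IkL/L replicate 2. Signal of female cells was thus present on every array, and the arrays with Y-linked signal carried that of both sexes. By the Y-linked signal, the IkL/L replicates of a stage came from different mice, and sex was not balanced between genotypes. WT replicates 1 and 2 read 12.09 and 11.34 for Xist in DN3, 11.53 and 10.33 in DN4, and 12.41 and 11.40 in DP cells. For Eif2s3y they read 8.27 and 8.73, 7.78 and 8.55, and 9.27 and 9.58. Whether the WT replicates came from separate pools was not tested. The results that change without the 3 IkL/L replicate 2 arrays are given with and without them.

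The promoters of these genes are shown first because a p53 response element near the start is what many direct targets of p53 share. RefSeq promoter windows (GRCm38.p6, 250 bases before to 50 after each annotated start) were at hand for 7 of the 9 genes, in 11 windows. Each window was searched on both strands for the p53 decamer, the 10-base palindromic unit of which a full response element holds a pair. No mismatch was allowed, so response elements with a mismatch were missed. The decamer occurred in 4 of the 7 genes. Counted by window, it occurred in 5 of their 11 windows, and in 8.36% of all 32851 windows of this length. Overlapping windows of Aen share the same decamer. Cdkn1a was the only one of the 7 with a pair of exact matches no more than 13 bases apart, which 0.0731% of all windows held. In Cdkn1a, the bases tgacatgttc directly after GAACATGTCT miss the pattern only at their first base and are not marked. The stretches below run 5′ to 3′ on the strand of the gene, with each decamer in capitals.
Cdkn1a, chr17:29090876-29090975, plus strand: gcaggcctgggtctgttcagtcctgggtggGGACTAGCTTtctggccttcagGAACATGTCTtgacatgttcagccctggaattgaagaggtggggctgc
Aen, chr7:78895907-78896006, plus strand: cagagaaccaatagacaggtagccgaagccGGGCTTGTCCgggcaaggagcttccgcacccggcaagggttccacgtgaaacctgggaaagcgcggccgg
Mdm2, chr10:117710875-117710974, minus strand: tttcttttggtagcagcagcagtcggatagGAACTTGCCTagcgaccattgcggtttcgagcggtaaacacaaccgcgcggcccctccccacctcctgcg
Ccng1, chr11:40755402-40755501, minus strand: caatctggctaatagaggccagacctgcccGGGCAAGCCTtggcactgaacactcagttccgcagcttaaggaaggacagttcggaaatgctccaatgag
Counted from the annotated start, the decamers began at -73 and -51 in the Cdkn1a window shown, with 12 bases between them. They began at -121 in the Aen window shown, at -186 in Mdm2 and at -185 in Ccng1. The Cdkn1a window of the other annotated start, further downstream at chr17:29093519-29093818, held 0 decamers. The Ikaros core TGGGAA, searched on both strands, occurred in 3 of the 11 windows and in 25.6% of all windows, which are similar shares. The 3 windows belonged to Cdkn1a, Sesn2 and Aen. In Cdkn1a the core lay in the window of another annotated start than the one shown. These matches describe letters in a window and were not measured as binding here.

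Compared with WT, the IkL/L cells did not show a shift of the p53 targets in 1 direction. Pmaip1 was called higher at all 3 stages, Cdkn1a in DN4 and DP cells, and Trp53inp1 in DN4 cells. Bbc3 and Phlda3 were called lower in DN4 cells, and Sesn2 in DP cells. For Bbc3 and Sesn2, both IkL/L arrays lay below both WT arrays at all 3 stages, so a call at 1 stage does not make the difference particular to it. A gene was called where limma's moderated test gave a Benjamini-Hochberg adjusted p under 0.05 over all 11649 tested genes. Differences are given on the log2 scale with their standard errors (SE), and n is 2 arrays in every group. In DN3 cells 1 of the 9 genes was called higher and 0 were called lower, against 2.08% and 2.21% of all tested genes. At an unadjusted p under 0.05 in limma, 4 were lower there, namely Bbc3, Sesn2, Aen and Phlda3. In DN4 cells 3 were higher and 2 lower, against 4.40% and 2.48%. In DP cells 2 were higher and 1 was lower, against 4.36% and 1.62%. Stage markers differed in DN4 cells beside these counts. Cd8b1, a marker of DP cells, was 7.86 and 7.78 in IkL/L DN4 replicates against 9.40 and 9.55 in those of WT (-1.65 ± 0.22, adjusted p = 0.00109), and was the 1 of 5 DP markers called. Of 6 DN3 markers Notch1 was higher (0.84 ± 0.15, 0.00724) and Il2ra was lower (-0.80 ± 0.21, 0.0415). The part of these stage differences in the DN4 results for the 9 genes was not tested. The median difference of the 9 genes was -0.28, -0.0009 and -0.10 at DN3, DN4 and DP, and that of all tested genes was -0.04, -0.002 and 0.03. In sorted populations, fewer cells that express a gene and less RNA per cell cannot be told apart. A second quantile normalization of the deposited values turned the split of all called genes in DN4 cells from 513 higher and 289 lower to 363 higher and 704 lower, and moved the median difference there to -0.11.

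**Figure D1:**
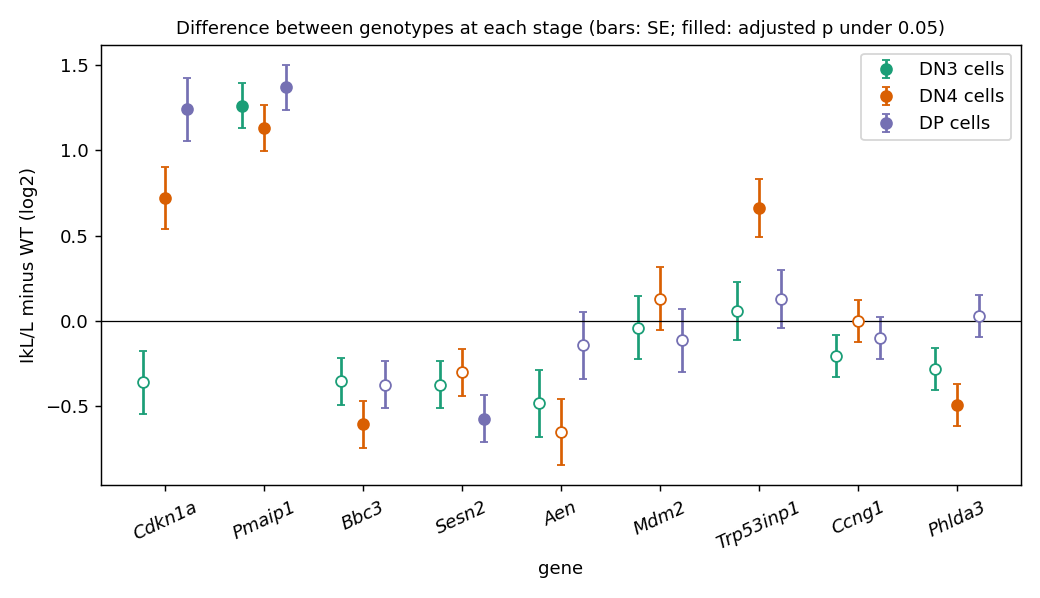
Difference between IkL/L and WT cells (log2, vertical axis) for each of the 9 genes at DN3, DN4 and DP, as the brightest probe set. Points are differences of means of 2 arrays, bars are standard errors, and filled points have an adjusted p under 0.05; Pmaip1 lies between 1.13 and 1.37 at all 3 stages, while Cdkn1a runs from -0.36 in DN3 to 1.24 in DP cells.

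Among the genes of cell cycle arrest, Cdkn1a was the only one of the 9 whose difference between genotypes was found to change with stage. Its WT arrays read 9.77 and 9.65 in DN3, 7.44 and 7.72 in DN4, and 6.76 and 6.30 in DP cells. Its IkL/L arrays read 9.40 and 9.30 in DN3, 8.30 and 8.31 in DN4, and 7.99 and 7.55 in DP cells. Both genotypes fell with each stage, and the IkL/L arrays lay below both WT arrays in DN3 and above both in DN4 and DP cells. The differences were -0.36 ± 0.18 in DN3 (adjusted p = 0.383), 0.72 ± 0.18 in DN4 (adjusted p = 0.0384) and 1.24 ± 0.18 in DP cells (adjusted p = 0.0015), the last being a 2.36-fold higher signal. The moderated F test of a change between stages gave an adjusted p of 0.0210 for Cdkn1a, and 1.47% of all genes passed it. The genotype difference grew by 1.08 ± 0.26 from DN3 to DN4 and by 1.60 ± 0.26 from DN3 to DP.

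The call of Cdkn1a in DP cells was kept without any single array, at adjusted p between 0.00151 and 0.022, and at 0.00408 without the 3 IkL/L replicate 2 arrays. The call in DN4 was lost without any 1 of the 4 DN4 arrays (adjusted p 0.0927 to 0.205), either WT DN3 array (0.0609) or the 3 IkL/L replicate 2 arrays (0.13), and that of the F test without WT DN3 replicate 1 (0.113), WT DN3 replicate 2 (0.0731) or the 3 IkL/L replicate 2 arrays (0.0763). The other probe set of the gene, 1421679_a_at, gave -0.26 ± 0.27, 0.66 ± 0.27 and 1.17 ± 0.27 at the 3 stages, but missed the threshold over all 45099 probe sets (adjusted p 0.804, 0.219 and 0.0821). Its F test gave an adjusted p of 0.361, and that of the brighter 1424638_at gave 0.112 in the same fit. Other DN3 genes moved with Cdkn1a in DP cells. The mean level of 6 DN3 markers was 8.75 to 9.07 on the IkL/L DP arrays and 7.80 to 8.01 on the WT DP arrays. Of the 6, 3 were called higher, namely Ptcra, Dtx1 and Notch1, against 4.36% of all tested genes. The median difference of the 6 was 1.07, and that of all tested genes was 0.03. Il2ra, which defines DN3 cells, read 4.56 and 5.07 on the IkL/L DP arrays against 4.80 and 5.12 on the WT DP arrays, both near or under the array median. The part of these DN3 genes, or of cells that express them, in the Cdkn1a result was not tested.

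Ccng1 did not pass the test between genotypes at any stage. WT arrays read 10.74 and 10.58 in DN3, 10.17 and 10.28 in DN4, and 11.29 and 11.17 in DP cells, and IkL/L arrays read 10.40 and 10.51, 10.18 and 10.28, and 11.13 and 11.13. The differences were -0.21 ± 0.12, -0.0009 ± 0.12 and -0.10 ± 0.12. Of its 2 dimmer probe sets, 1450017_at showed the widest gap, -0.71 ± 0.24 in DN3 cells, where IkL/L replicate 2 read 6.40 and replicate 1 read 7.31. Its adjusted p over all probe sets was 0.332.

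Among the pro-apoptotic genes, Pmaip1 differed most clearly. On the WT arrays it read 5.06 and 5.04 in DN3, 4.68 and 4.96 in DN4, and 4.54 and 4.66 in DP cells. Every WT array lay below the median of its own array, so this level may be mostly background. On the IkL/L arrays it read 6.38 and 6.24, 6.01 and 5.89, and 6.03 and 5.92. All 6 IkL/L arrays were above all 6 WT arrays, by more than the spread within any group. The differences were 1.26 ± 0.13 in DN3 (adjusted p = 0.000164), 1.13 ± 0.13 in DN4 (0.000437) and 1.37 ± 0.13 in DP cells (7.2e-05), or 2.40-, 2.19- and 2.58-fold higher signals. Since the WT signal may be background, these differences may be lower limits of the difference in RNA. Pmaip1 passed the brightness filter only through its IkL/L arrays, and it was also called at all 3 stages in the unfiltered fit over all 45099 probe sets, at adjusted p of 0.00122, 0.00227 and 0.000518. In that fit 1.09%, 1.81% and 1.67% of all probe sets were called, in either direction, at DN3, DN4 and DP. All 3 calls were kept without any single array (adjusted p at most 0.00908) and without the 3 IkL/L replicate 2 arrays (at most 0.00528). The F test did not find a change of the difference between stages (adjusted p = 0.748).

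Bbc3 ran opposite to Pmaip1, although both encode BH3-only proteins. The WT arrays of Bbc3 read 6.69 and 6.65 in DN3, 6.62 and 6.89 in DN4, and 7.30 and 7.24 in DP cells. The IkL/L arrays read 6.24 and 6.39, 6.19 and 6.11, and 7.02 and 6.77, below both WT arrays at each stage. The difference was -0.61 ± 0.14 in DN4 cells, to 65.6% of the WT signal (adjusted p = 0.0232). It was -0.36 ± 0.14 in DN3 (adjusted p = 0.231) and -0.38 ± 0.14 in DP cells (adjusted p = 0.159), which did not pass. No change of the difference between stages was found by the F test (adjusted p = 0.706). The DN4 call was lost without WT DN4 replicate 2 (adjusted p = 0.195), IkL/L DN4 replicate 1 (0.0882), IkL/L DN4 replicate 2 (0.165) or the 3 IkL/L replicate 2 arrays (0.137).

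Aen missed the threshold at every stage with its brightest probe set. That probe set read 8.78 and 8.91 in WT DN3, 8.63 and 8.99 in WT DN4, and 7.92 and 8.42 in WT DP cells. The IkL/L arrays read 8.50 and 8.23, 8.33 and 7.97, and 7.97 and 8.08, so that the genotypes did not overlap in DN3 and DN4 and overlapped in DP cells. The differences were -0.49 ± 0.20 (adjusted p = 0.248), -0.65 ± 0.20 (0.0658) and -0.14 ± 0.20 (0.784). The probe sets of Aen were lower in IkL/L DN3 and DN4 cells, apart from 1451186_at, which barely differed and lay under the median of every array. The dimmer 1437373_at was called lower over all probe sets in DN3, by -0.55 ± 0.09 (adjusted p = 0.0251), and in DN4, by -0.45 ± 0.09 (0.0476). Its WT arrays read 7.20 and 7.17 in DN3 and 7.09 and 7.06 in DN4, and its IkL/L arrays 6.60 and 6.68, and 6.61 and 6.63. The third, 1450506_a_at, gave -0.47, -0.50 and 0.33 with SE 0.15 and was not called, and 1451186_at lay between 4.66 and 5.10 on all arrays with differences between -0.02 and 0.10. With a second quantile normalization the brightest probe set was called in DN4, at -0.75 (adjusted p = 0.025). With the replicate number as a block within each genotype it was called too, at -0.65 (adjusted p = 0.0218).

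Phlda3 was lower in IkL/L DN4 cells. WT arrays read 6.57 and 6.70 in DN3, 6.82 and 6.63 in DN4, and 6.28 and 6.17 in DP cells. The IkL/L arrays were close to each other over all stages, at 6.33 and 6.37, 6.27 and 6.19, and 6.21 and 6.29. The difference was -0.49 ± 0.12 in DN4 (adjusted p = 0.0364), -0.28 ± 0.12 in DN3 (0.298) and 0.03 ± 0.12 in DP cells (0.946). The DN4 call was lost without any 1 of the 4 DN4 arrays (adjusted p 0.0841 to 0.224), either WT DN3 array (0.0577 and 0.0578), either IkL/L DP array (0.051) or the 3 IkL/L replicate 2 arrays (0.233).

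Trp53inp1 was higher in IkL/L DN4 cells. Its WT arrays read 12.54 and 12.18 in DN3, 11.73 and 11.51 in DN4, and 13.64 and 13.65 in DP cells. The IkL/L arrays read 12.65 and 12.17, 12.29 and 12.27, and 13.79 and 13.76, with no overlap in DN4. The difference there was 0.66 ± 0.17 (adjusted p = 0.0414), and those in DN3 and DP were 0.06 ± 0.17 (0.909) and 0.13 ± 0.17 (0.787). The DN4 call was lost without any 1 of the 4 DN4 arrays (adjusted p 0.0901 to 0.247), without either IkL/L DP array (0.0585), without the 3 IkL/L replicate 2 arrays (0.113), and with a second quantile normalization, at 0.44 (0.0902). The dimmer 1416927_at gave 0.10, 0.38 and 0.41 with SE 0.29 and was not called.

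Sesn2, the stress-response gene of the group, was called lower in IkL/L DP cells. WT arrays read 6.75 and 6.58 in DN3, 6.85 and 6.95 in DN4, and 7.19 and 7.26 in DP cells. IkL/L arrays read 6.28 and 6.30, 6.42 and 6.77, and 6.63 and 6.67, below both WT arrays at each stage. The difference was -0.57 ± 0.14 in DP cells, to 67.1% of the WT signal (adjusted p = 0.0299). It was -0.38 ± 0.14 in DN3 (0.203) and -0.30 ± 0.14 in DN4 (0.204). No change of the difference between stages was found by the F test (adjusted p = 0.701). The DP call was lost without any 1 of the 4 DP arrays (adjusted p 0.0742 to 0.155) or the 3 IkL/L replicate 2 arrays (0.0958). The other probe set, 1451599_at, gave -0.46, -0.03 and -0.43 with SE 0.17 and was not called.

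Mdm2, the feedback regulator that is itself induced by p53, did not pass the test between genotypes. WT arrays read 9.08 and 8.89 in DN3, 9.12 and 8.82 in DN4, and 9.65 and 9.93 in DP cells. IkL/L arrays read 9.14 and 8.75, 9.04 and 9.17, and 9.85 and 9.49, and the genotypes overlapped at all 3 stages. The differences were -0.04, 0.13 and -0.11 with SE 0.18. The dimmer 1427718_a_at gave -0.31, -0.01 and -0.002 with SE 0.18, and 1457929_at read 3.73 to 4.31 on all arrays, under every array median.

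**Figure D2:**
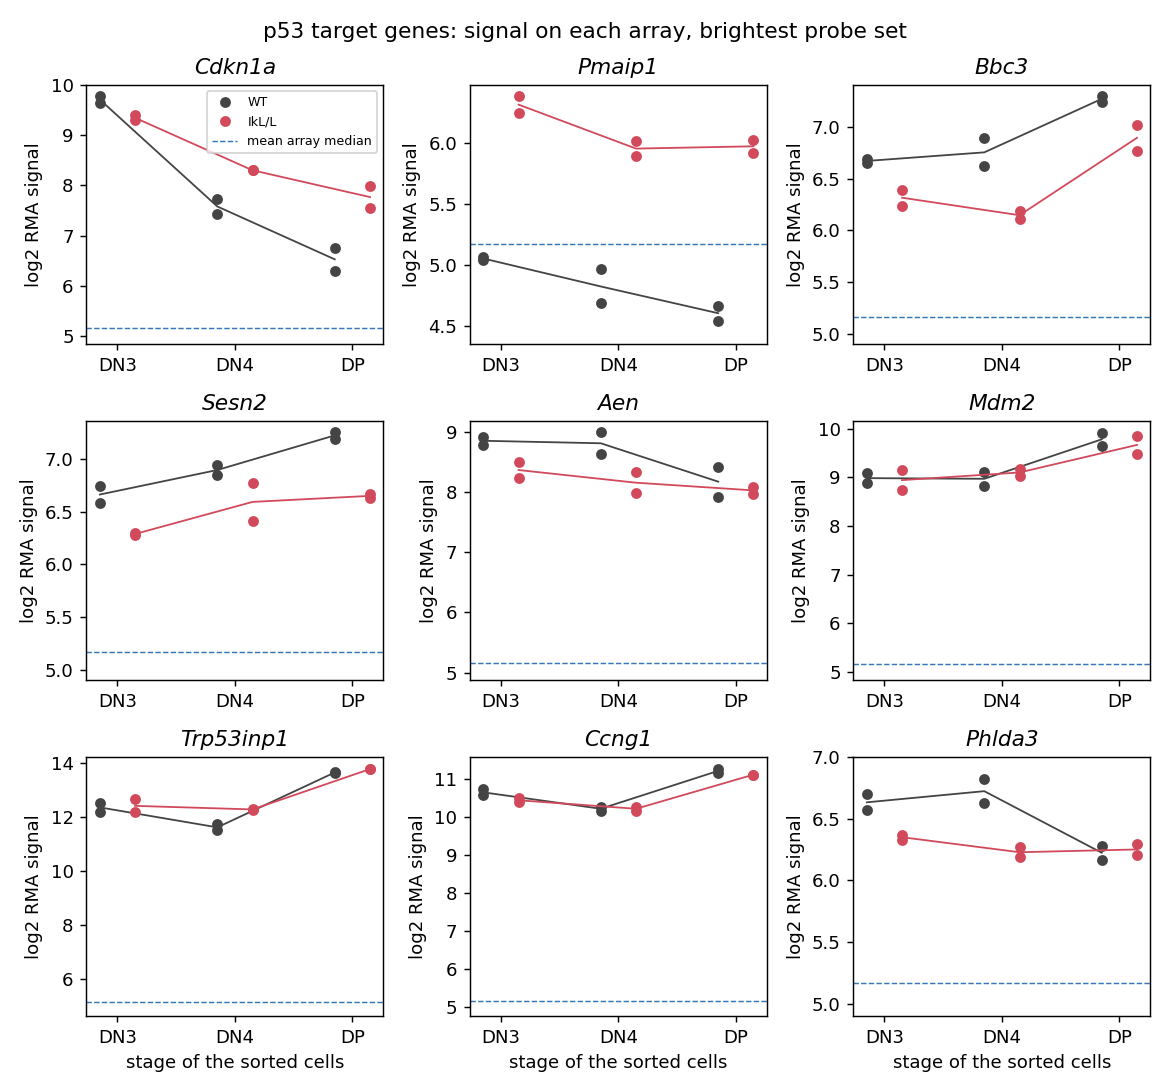
Signal of the brightest probe set of each gene on every array (log2, vertical axis, a separate scale for each gene) by stage, with WT in grey and IkL/L in red; lines join group means of 2 arrays and the dashed line is the mean of the array medians. Pmaip1 lies below that line on all WT arrays and above it on all IkL/L arrays, and Cdkn1a falls from 9.77 to 6.30 in WT against 9.40 to 7.55 in IkL/L cells.

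**Figure D3:**
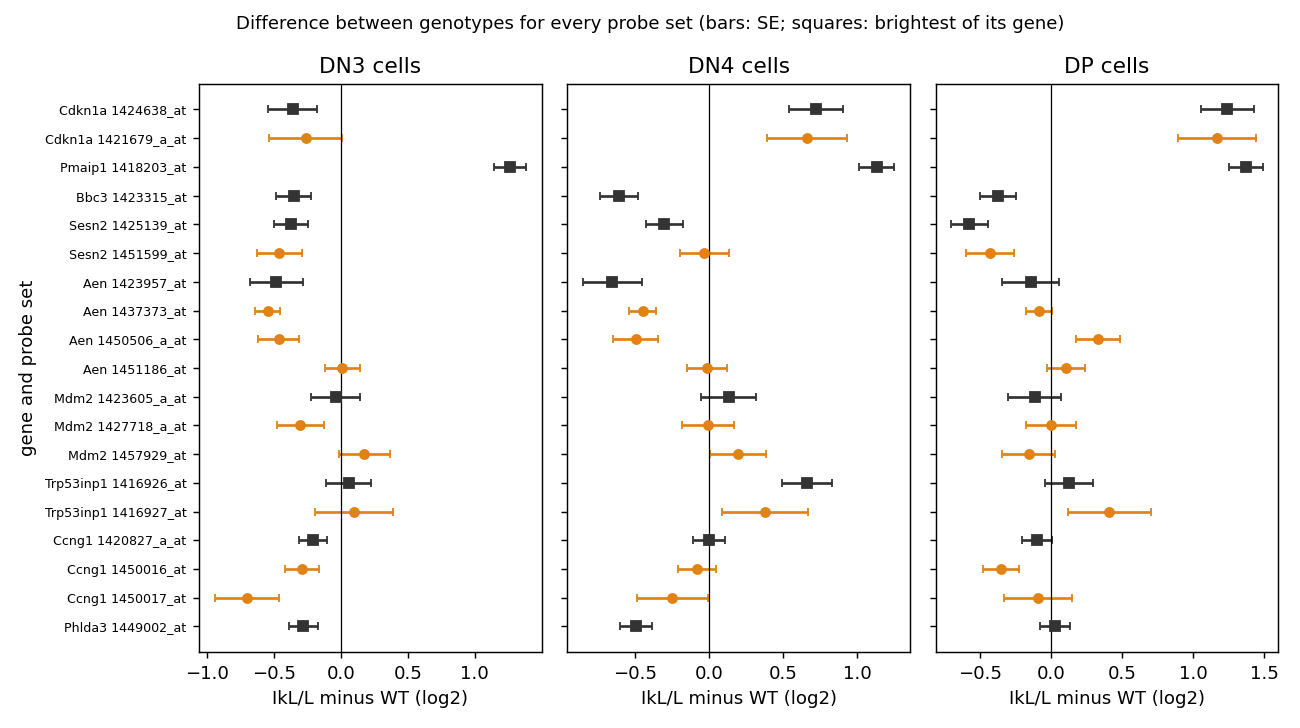
Difference between IkL/L and WT cells (log2, horizontal axis) for all 19 probe sets at each stage, with standard errors; squares mark the brightest probe set of a gene and circles the others. Both Cdkn1a probe sets lie above 0.6 in DN4 and above 1.1 in DP cells, and 3 of the 4 Aen probe sets lie under -0.4 in DN3 and DN4 cells.

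Averaged over the 3 stages, which uses 6 arrays of each genotype, 2 of the 9 genes were called higher and 4 lower, against 9.01% and 6.49% of all tested genes. A second quantile normalization turned the split of all called genes in this contrast from 1050 higher and 756 lower to 833 higher and 1086 lower. Pmaip1 was higher by 1.25 ± 0.08 (adjusted p = 5.95e-07) and Cdkn1a by 0.53 ± 0.11 (0.0054). The genes that were lower were Bbc3 by -0.45 ± 0.08 (0.00277), Sesn2 by -0.42 ± 0.08 (0.00422), Aen by -0.43 ± 0.11 (0.0244) and Phlda3 by -0.25 ± 0.07 (0.0357). Trp53inp1 gave 0.28 ± 0.10 (0.0778, and 0.0442 with the replicate number as a block within each genotype), Ccng1 -0.10 ± 0.07 (0.354) and Mdm2 -0.01 ± 0.11 (0.966). The fit takes the 12 arrays as independent. Same-numbered arrays of a genotype may share a pool of mice, so the adjusted p averaged over stages may be too small. The block within each genotype takes differences between replicate numbers out of the spread, so its adjusted p has the same limit. Aen was no longer called without WT DN3 replicate 1 (adjusted p = 0.0509), WT DN3 replicate 2 (0.0733), WT DN4 replicate 2 (0.0827), WT DP replicate 2 (0.0523), IkL/L DN4 replicate 2 (0.0791) or IkL/L DP replicate 1 (0.0655), and that of Phlda3 without 9 of the 12 arrays taken singly (0.0554 to 0.114). Without the 3 IkL/L replicate 2 arrays both were lost, at 0.157 and 0.151. The genotype comparison for 4 of the 6 genes called here kept its call without any single array, namely Pmaip1, Cdkn1a, Bbc3 and Sesn2.

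From DN3 to DN4, WT cells lost Cdkn1a signal, and so did IkL/L cells by a smaller amount. In WT cells 0 of the 9 genes were called higher and 3 lower, against 1.55% and 7.70% of all tested genes, and 0 were higher at an unadjusted p under 0.05. Cdkn1a fell by 2.13 on the log2 scale (SE 0.18, adjusted p = 3.11e-05) to 22.9% of its DN3 signal, Trp53inp1 fell by 0.74 (SE 0.17, 0.0193) and Ccng1 fell by 0.43 (SE 0.12, 0.0487). Without WT DN3 replicate 1 (0.24), WT DN4 replicate 1 (0.0617) or WT DN4 replicate 2 (0.147) the Trp53inp1 call was lost. That of Ccng1 did not hold without any 1 of the 4 WT arrays of the step (0.0958 to 0.375), any 1 of the 4 IkL/L DN4 and DP arrays (0.0697 to 0.0723) or the 3 IkL/L replicate 2 arrays (0.0874). A second quantile normalization turned the split of all called genes from 181 higher and 897 lower to 383 higher and 681 lower. In IkL/L cells 1 gene was higher at an unadjusted p under 0.05 in limma, Sesn2. By the adjusted p, 0 genes were called higher, against 1.20%, and 1 gene was called lower, against 3.19%. That gene was Cdkn1a, which fell by 1.05 (SE 0.18, adjusted p = 0.00636) to 48.4% of its DN3 signal, and its call was lost without IkL/L DN4 replicate 1 (0.0522), replicate 2 (0.0575) or the 3 IkL/L replicate 2 arrays (0.0655). These steps and the genotype differences share the same DN3 and DN4 arrays.

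From DN4 to DP, the targets moved in both directions in both genotypes. In WT cells 4 of the 9 genes rose and 3 fell, against 23.8% and 33.2% of all tested genes, and the median of the 9 was 0.33 against -0.15 for all genes. Trp53inp1 rose by 2.03 ± 0.17 (4.08-fold, adjusted p = 1.55e-06), Ccng1 by 1.00 ± 0.12 (2.8e-05), Mdm2 by 0.81 ± 0.18 (0.00259) and Bbc3 by 0.52 ± 0.14 (0.0073). Cdkn1a fell by 1.05 (SE 0.18, 0.000412), Aen fell by 0.64 (SE 0.20, 0.015) and Phlda3 fell by 0.50 (SE 0.12, 0.00462). Sesn2 gave 0.33 ± 0.14 (0.0606) and Pmaip1 -0.22 ± 0.13 (0.179), the latter between levels under the array medians. The Bbc3 call was lost without WT DN4 replicate 1 (0.0765), and the Aen call without WT DN4 replicate 2 (0.135) or WT DP replicate 1 (0.14).

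In IkL/L cells the same step raised 4 genes and lowered 1, against 19.5% and 26.0% of all tested genes, with a median of 0.06 for the 9 genes and -0.04 for all. The 4 were those that rose in WT cells. Trp53inp1 rose by 1.49 ± 0.17 (2.64e-05), Ccng1 by 0.90 ± 0.12 (9.61e-05), Bbc3 by 0.75 ± 0.14 (0.000863) and Mdm2 by 0.57 ± 0.18 (0.0247). Cdkn1a fell by 0.53 (SE 0.18, 0.0324). Aen gave -0.13 ± 0.20 (0.648) and Phlda3 0.02 ± 0.12 (0.908). The F test of a change of the genotype difference between stages did not pass for either (adjusted p 0.574 and 0.317), so the absence of a call in IkL/L cells is not shown to be a difference from WT. The Cdkn1a call was lost without either IkL/L DN4 array (0.107), without IkL/L DP replicate 2 (0.28) or without the 3 IkL/L replicate 2 arrays, at -0.31 (0.408). That of Mdm2 was lost without IkL/L DN4 replicate 1 (0.129), IkL/L DN4 replicate 2 (0.0563) or IkL/L DP replicate 1 (0.201).

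**Figure D4:**
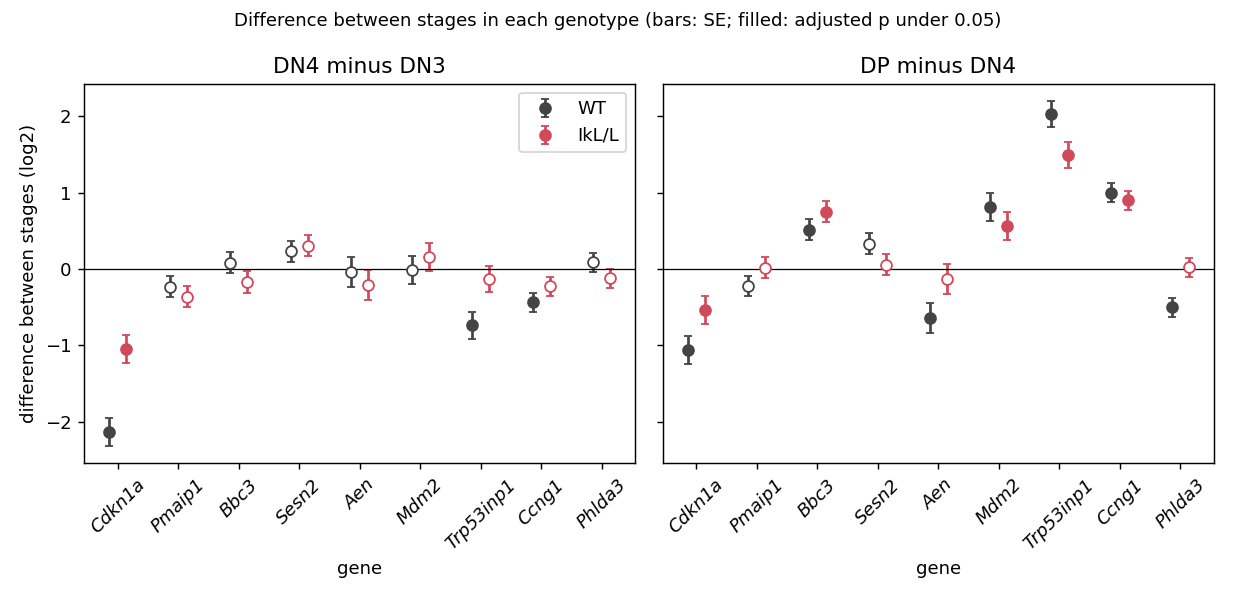
Difference between successive stages (log2, vertical axis) for each gene in WT (grey) and IkL/L cells (red), with standard errors; filled points have an adjusted p under 0.05. Cdkn1a falls at both steps in both genotypes, by 2.13 and 1.05 in WT and by 1.05 and 0.53 in IkL/L cells, while Trp53inp1, Ccng1, Mdm2 and Bbc3 rise from DN4 to DP.

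A wider list of 30 other genes known to be induced by p53, of which 24 were tested, was read beside the 9. Between genotypes, 1 of the 24 was called higher and 2 lower in DN3, 1 higher and 2 lower in DN4, and 3 higher and 0 lower in DP cells, with medians of -0.09, 0.14 and 0.04. The shares of all tested genes were those given above for the 9 genes, 2.08% and 2.21% in DN3, 4.40% and 2.48% in DN4, and 4.36% and 1.62% in DP cells, and the medians of all genes were -0.04, -0.002 and 0.03. Ptpn14, a protein tyrosine phosphatase, was higher at all 3 stages, by 1.96 ± 0.36, 2.34 ± 0.36 and 1.65 ± 0.36 (adjusted p 0.00771, 0.00243 and 0.017). Its group means were 6.87, 6.89 and 8.83 in WT and 8.83, 9.24 and 10.48 in IkL/L cells. Tigar, which lowers glycolytic flux, was lower in DN3 (-0.73 ± 0.15, 0.0163) and DN4 cells (-0.75 ± 0.15, 0.0121). Cd82 was lower in DN3 (-0.78 ± 0.20, 0.0477) and Dcxr in DN4 cells (-0.98 ± 0.23, 0.0238). Ier5 (0.87 ± 0.18, 0.0121) and Ei24 (0.71 ± 0.14, 0.00911) were higher in DP cells. Fas, the death receptor, was not called between genotypes at any stage, and 0 of the 24 passed limma's F test between stages, which 6 passed at an unadjusted p under 0.05. In DP cells 2 were lower at that level.

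From DN4 to DP, 11 of the 24 rose and 7 fell in WT cells, with a median of 0.16, against 23.8% and 33.2% of all tested genes with a median of -0.15. In IkL/L cells 11 rose and 4 fell, with a median of 0.37, against 19.5% and 26.0% with a median of -0.04. Fas rose by 3.97 ± 0.18 in WT and 3.23 ± 0.18 in IkL/L cells, from means of 4.68 and 4.96 in DN4. These means lie under the array medians, so both rises may be lower limits. Btg2, an antiproliferative gene, rose by 2.66 ± 0.30 and 2.09 ± 0.30. Zmat3, an RNA-binding protein gene, rose by 2.32 ± 0.28 and 2.82 ± 0.28, and Sesn1, the paralog of Sesn2, by 2.08 ± 0.12 and 1.66 ± 0.12. Dcxr fell by 1.78 (SE 0.23) and by 0.91 (SE 0.23), to means of 5.01 and 4.90 in DP cells. These means lie under the array medians, so both falls may be lower limits. Further, Pidd1, part of a caspase-2 activating complex, fell by 1.45 (SE 0.16) and by 1.35 (SE 0.16). From DN3 to DN4, 1 rose and 2 fell in WT cells, against 1.55% and 7.70% of all tested genes. Ephx1 rose by 1.02 ± 0.19, Cd82 fell by 0.91 (SE 0.20), and Lif fell by 0.65 (SE 0.18), from a mean of 5.12 to one of 4.47, both under the array medians, so that both may be mostly background. In IkL/L cells 1 rose and 1 fell, against 1.20% and 3.19%, as Ier5 rose by 0.87 ± 0.18 and Dcxr fell by 1.10 (SE 0.23).

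**Figure D5:**
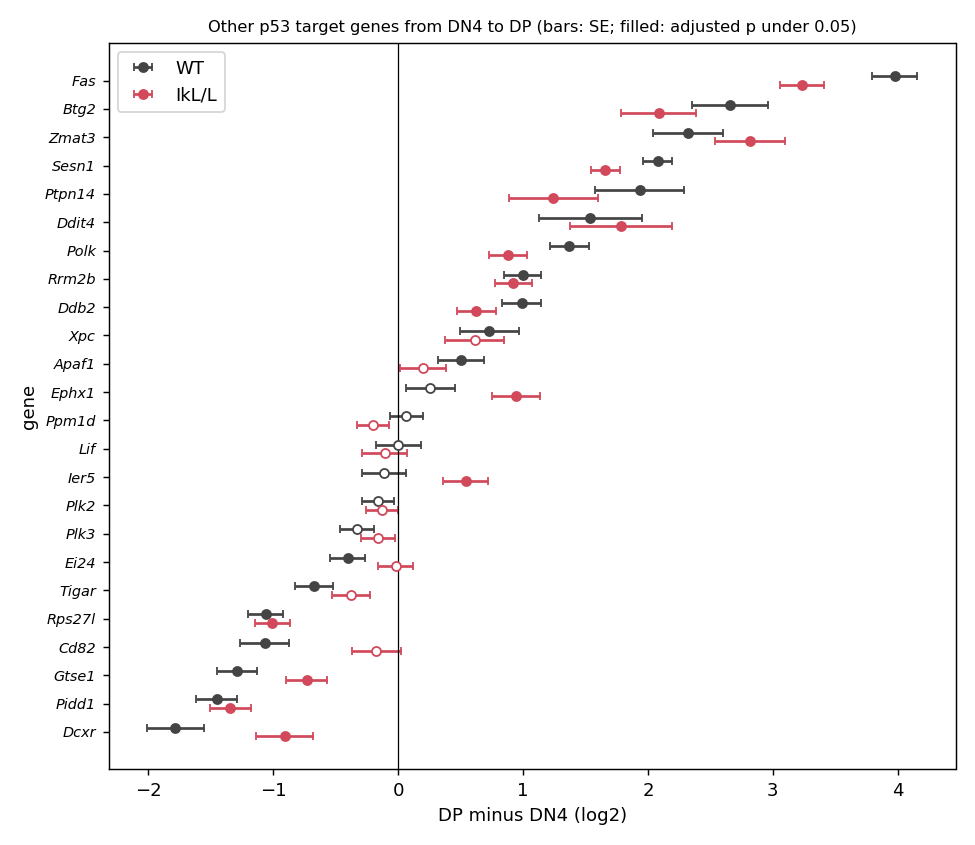
Difference between DP and DN4 cells (log2, horizontal axis) for the 24 tested genes of the wider p53 target list in WT (grey) and IkL/L cells (red), ordered by the WT value, with standard errors; filled points have an adjusted p under 0.05. Fas has the highest value in both genotypes, at 3.97 and 3.23, and Dcxr the lowest in WT cells, at -1.78.

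Of 21 genes that control p53, 16 were tested. In DN3 and DP cells 0 were called by limma (1 lower in DN3 and 3 higher in DP cells at an unadjusted p under 0.05). At that level 5 were higher and 0 lower in DN4 cells. By the adjusted p, 1 was called higher and 0 lower there, against 4.40% and 2.48% of all tested genes, a count close to the background. The called gene was Atr, a DNA damage kinase, at 0.49 ± 0.13 (adjusted p = 0.0481). Averaged over stages, the kinase genes Hipk2 (0.55 ± 0.13, 0.0158) and Chek1 (0.41 ± 0.12, 0.0335) were higher and 0 genes lower, against 9.01% and 6.49%, with 0 lower at an unadjusted p under 0.05 in limma. The medians at the 3 stages were 0.05, 0.23 and 0.05, and those of all genes -0.04, -0.002 and 0.03. Mdm4, the partner of Mdm2, gave -0.27 ± 0.25, 0.47 ± 0.25 and -0.45 ± 0.25 at the 3 stages (0.643, 0.261 and 0.38). From DN3 to DN4 Prkdc fell by 0.57 (SE 0.13, adjusted p = 0.0193) in WT cells, the 1 gene called. At an unadjusted p under 0.05 in limma, 7 of the 16 were lower and 0 higher at this WT step. Their median was -0.26, against -0.03 for all genes. In IkL/L cells 0 were called, and 2 passed an unadjusted p under 0.05. From DN4 to DP, 4 of the 16 rose and 5 fell in WT cells, against 23.8% and 33.2% of all genes, and 3 rose and 6 fell in IkL/L cells, against 19.5% and 26.0%, so these counts are near the background. Mdm4 rose by 1.80 ± 0.25 in WT and 0.88 ± 0.25 in IkL/L cells, and the acetyltransferase genes Ep300 by 1.56 ± 0.14 and 1.19 ± 0.14 and Crebbp by 1.52 ± 0.15 and 1.07 ± 0.15. The checkpoint kinase gene Chek1 fell by 1.95 (SE 0.20) and by 1.92 (SE 0.20).

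Several of the 9 genes also answer to pathways other than p53, and lists for these were set beside them. Of 13 tested genes of the ATF4 stress response, which can also induce Sesn2 and Pmaip1, 0 were called higher and 1 lower in DN3, 1 higher and 1 lower in DN4, and 1 higher and 0 lower in DP cells. For this list and the next ones, the shares of all tested genes called higher and lower were 2.08% and 2.21% in DN3, 4.40% and 2.48% in DN4, and 4.36% and 1.62% in DP cells, with medians of -0.04, -0.002 and 0.03. Asns was lower in DN3 and DN4 (-0.70 ± 0.16 and -0.60 ± 0.16), Slc7a11 was higher in DN4 (1.08 ± 0.17) and Phgdh was higher in DP cells (1.00 ± 0.13). The medians were -0.08, -0.10 and 0.08. Of 15 immediate early genes, which also respond to handling, Junb was lower in DN3 (-1.18 ± 0.26), 0 were called in DN4 and Myc was higher in DP cells (1.18 ± 0.23), with medians of -0.26, -0.34 and -0.08. At an unadjusted p under 0.05 in limma, 4 of the 15 were lower in DN4 cells. Of 22 cell cycle genes 0 were called in DN3, where 5 were higher at that level, 4 were higher in DN4, led by Tyms (1.84 ± 0.48) and Rrm2 (0.61 ± 0.15), and 1 was higher in DP cells, Cdc20 (0.52 ± 0.13). The medians were 0.16, 0.34 and 0.31. From DN4 to DP 19 of the 22 fell in WT and 22 in IkL/L cells, against 33.2% and 26.0% of all tested genes. The part of any of these changes in the results for the 9 genes was not tested.

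The mean of 9 myeloid markers was 4.77 to 4.93 on the WT arrays and 4.61 to 5.92 on the IkL/L arrays, the highest on IkL/L DN3 replicate 1, where S100a8 read 8.96 and S100a9 read 7.27, and 0 of the 5 tested were called by limma at any stage (1 in DN3, 1 in DN4 and 0 in DP cells at an unadjusted p under 0.05). Lyz2, a lysozyme gene of myeloid cells, read 8.28 and 7.45 on the IkL/L DN3 arrays against 6.90 and 6.79 on the WT DN3 arrays, and S100a8 read 7.09 on IkL/L DN4 replicate 1. The median difference of the 5 tested markers between genotypes was 1.02 in DN3, 0.13 in DN4 and 0.17 in DP cells. Csf1r, another of the myeloid markers, read 5.54 to 6.29 on the WT arrays, and all 6 IkL/L arrays lay within that range. The part of myeloid cells in the Pmaip1 result in DN3 cells was not tested. The mean of 5 B cell markers was 5.02 to 5.47 over all arrays, the mean of 10 stroma markers 4.67 to 5.07, and the mean of 4 erythroid markers 4.76 to 6.15, the highest on an IkL/L DN3 array. Of 6 tested markers of gamma-delta T and NK cells, 2 were lower in DN3 (Blk and Nkg7), 3 lower in DN4 (Sox13, Blk and Nkg7) and 2 higher in DP cells (Tbx21 and Cd163l1). The mean of all 8 of these markers on the array was 6.23 to 6.42 in IkL/L against 6.59 to 6.69 in WT DN3, 5.95 to 6.20 against 6.64 to 6.86 in DN4, and 5.08 to 5.69 against 4.75 to 4.89 in DP cells. The part of such cells in the changes of the 9 genes was not tested.

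For the 7 genes called in at least 1 comparison of genotypes, the 3 tested genes with the highest Pearson correlation over the 12 arrays were listed, as a description of profiles that share the same arrays and stages. Pmaip1 was followed most closely by Irs1 (r = 0.984), Laptm4b (0.976) and Scd1 (0.973). Cdkn1a was followed by Etv6 (0.969), Ccdc122 (0.967) and Tnfsf10 (0.966), of which the last encodes the death ligand TRAIL. Trp53inp1, whose profile is dominated by its rise in DP cells, was followed by Ablim1 (0.992), Aff1 (0.991) and Crebbp (0.988). For Bbc3 they were Kcnh3 (0.959), Mon1a (0.958) and S100a10 (0.954), and for Aen Chid1 (0.970), Swsap1 (0.968) and Mtr (0.964). The closest genes to Sesn2 were Dok2 (0.936), Sys1 (0.911) and Tes (0.899), and those to Phlda3 were Ogfod2 (0.908), Lrrc46 (0.901) and Ak7 (0.900). None of the 21 genes in these lists was among the other 8 p53 targets described here.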

How the data were processed

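RNA of sorted thymocytes was measured on 12 single-colour Affymetrix arrays. The authors deposited log2 signals, 1 per probe set and array, made with RMA per the submitters' processing notes, which name no version. RMA subtracts a background, normalizes probes by quantiles and sums up each probe set. The labels describe 2 rounds of amplification in 3 labelling series that are not assigned to samples, so that batch was not tested. There is no read depth for array signal, and precision is limited by the number of arrays.

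Of 45099 probe sets, 34958 carried 1 symbol in the platform table, 932 several and 9209 none. For each of 18194 genes the brightest probe set on average was kept, and the 11649 that reached the array median on 2 or more arrays were tested. All 9 genes passed. The test was limma 3.58.1 in R 4.3.3 with 1 mean per group over 12 arrays (6 residual and 5.67 prior degrees of freedom) and Benjamini-Hochberg adjustment over all tested genes of a contrast. The same model without a filter was fitted to all probe sets. The model fit was tested on simulated arrays with known changes in IkL/L DN4 cells, for the genotype contrasts in DN4 and DN3 cells. The other contrasts, the F test, the blocks and the promoter search were not tested in this way. SE is limma's moderated standard error, and every p in the text comes from limma.

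The 9 genes, the gene lists and the tests were chosen with earlier results of these data known. The text names all 9 genes and their probe sets, Mdm4, up to 4 called genes of largest difference per contrast from the 2 p53 lists, up to 2 per genotype contrast from the others, and 3 most similar genes per called member. Fas between genotypes, and the marker genes printed with their values, were named after their values were seen.

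Alternatives were no filter, a second quantile normalization, median centring, probe sets of a gene averaged, array weights, a filter at the 75th percentile, a robust prior with a trend, a block for the replicate number, a minimum log2 difference of 0.5, the arrays of a contrast alone, leaving out each array, and leaving out the 3 IkL/L replicate 2 arrays. Where an array is left out, the lone array of its group is assumed to vary like the other groups. Same-numbered arrays deviated together between all 3 pairs of WT stages (r 0.15 to 0.32), in 1 of 3 pairs of IkL/L stages (0.01 to 0.49) and in 0 of 9 pairs of groups between genotypes (-0.34 to 0.06). The WT numbers were therefore read as pairing the stages, a hint from the data and not the labels. The IkL/L numbers also went together across stages by Y-linked signal, which replicate 2 lacked at each stage. A block for the replicate number within each genotype was added after seeing the data. Promoter windows came from RefSeq (GRCm38.p6). No build is named for the array, so its probe sets have no positions here. Genes without a symbol of their own in the platform table were not analysed here.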

Additional observations from a re-analysis of the deposited data

Results flagged for a closer look

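The difference between IkL/L and WT cells in Cdkn1a changed with stage, by a moderated F test on its 2 changes between stages (limma, adjusted p = 0.0210). The IkL/L minus WT difference was -0.36 ± 0.18 in DN3, 0.72 ± 0.18 in DN4 and 1.24 ± 0.18 in DP cells (SE, 2 arrays in each group), and it grew by 0.52 ± 0.26 from DN4 to DP. Both IkL/L arrays were lower than both WT arrays in DN3 cells, and both were higher in DN4 and in DP cells. The F test no longer passed without WT DN3 replicate 1 (adjusted p = 0.113), WT DN3 replicate 2 (0.0731) or the 3 IkL/L replicate 2 arrays (0.0763), with the probe sets of each gene averaged (0.0607), or for either probe set of the gene in the fit over all probe sets (0.112 and 0.361). The cause was not tested.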

How the results depend on the processing

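The numbers of the 9 genes called were recomputed under each alternative, and 0 results of single genes reversed a called direction. Of the results of single genes, 1705 kept their side of the threshold, 111 lost a call, 14 gained one and 51 changed the sign of an uncalled value. Main counts were 1 (DN3), 5 (DN4), 3 (DP), 6 (averaged), 1 (F test), 3 and 7 (WT steps to DN4 and DP) and 1 and 5 (IkL/L steps). Without single arrays they ran from 1 to 6 in DN4, 0 to 1 for the F test, 1 to 3 and 6 to 8 for the WT steps, and 0 to 1 and 3 to 5 for the IkL/L steps. In DN4 they were 1 without WT DN4 replicate 2 or either IkL/L DN4 array, 2 without WT DN4 replicate 1, and 3 without either WT DN3 or either IkL/L DP array. The filter at the 75th percentile, which dropped Pmaip1 and other dim genes, gave 0 in DN3, 2 in DN4, 1 in DP and 2 averaged. Averaging the probe sets of each gene gave 3 in DN4, 0 for the F test and 1 for the WT step to DN4. The minimum log2 difference of 0.5 left 1 in DN4, 1 in DP, 1 averaged, 1 and 3 for the WT steps, and 0 and 2 for the IkL/L steps; it kept Pmaip1 at every stage and put Cdkn1a in DP cells at an adjusted p of 0.0599. Without the 3 IkL/L replicate 2 arrays the counts were 1 in DN4, 0 for the F test and 0 for the IkL/L step to DN4. The second quantile normalization added Sesn2 (-0.48, adjusted p = 0.0396) and Aen to the DN4 calls and ended those of Cdkn1a (0.60, 0.0535) and Trp53inp1. Same-numbered arrays did not deviate together between genotypes, and those of all 3 pairs of WT stages did. With 1 replicate block over both genotypes the counts were 2 for the WT step to DN4, where Ccng1 was lost (adjusted p = 0.0636), and 5 in DN4. The replicate block within each genotype gave 6 in DN4, where Aen was added, 7 averaged, where Trp53inp1 was added, 3 and 7 at the WT steps and 1 and 5 at the IkL/L steps. It changed no other call of the 9 genes, and by the F test it called 293 of all genes. Of all genes, 499 were called in DN3, 802 in DN4, 697 in DP and 1806 averaged, 171 by the F test, 1078 and 6638 at the WT steps and 512 and 5298 at the IkL/L steps. The minimum difference gave 137, 117, 158 and 207, and 196, 3150, 108 and 2214 at the steps. Array weights gave 1604 in DN4 and 2157 at the WT step to DN4. The arrays of a contrast alone gave 272, 1433 and 344 at the stages, and 1983 and 221 at the steps to DN4. The 75th percentile filter gave 313, 508 and 109 in DN3, DN4 and the F test. Without single arrays the counts ran from 205 to 792 in DN3, 246 to 1114 in DN4, 385 to 825 in DP, 1153 to 2032 averaged, 85 to 332 for the F test, and 329 to 1327 and 211 to 592 at the steps to DN4. Without the 3 IkL/L replicate 2 arrays they were 303, 404, 484 and 1189, 77 for the F test and 222 at the IkL/L step to DN4. Signals under the array median, Pmaip1 in WT cells among them, may be partly background and may understate a further fall.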
